A study of Mus musculus with 74 samples.

Results

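The genes described here are 8 mouse transcription regulators that act beside the GATA factors in red blood cell formation, namely Klf1, Tal1, Lmo2, Ldb1, Gfi1b, Nfe2, Zfpm1 and Hemgn. They were followed through promoter-capture Hi-C, an assay that cuts cross-linked chromatin into restriction fragments, ligates neighbouring fragments and enriches the ligation products that contain a promoter. A gene was followed through each captured fragment, the first of the 2 fragments of a listed interaction, that holds the start or the end of the gene as annotated on mm10. This found 7 of the 8 genes, on 8 captured fragments, among 16720 protein-coding genes with such a fragment and 21022 captured fragments listed in all. Ldb1 had no captured fragment that holds its annotated start or end.

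Klf1, also called erythroid Krüppel-like factor, is a zinc-finger activator that binds CACCC elements of globin and red cell membrane genes. Tal1 (SCL) is a basic helix-loop-helix factor that binds E-boxes together with E proteins, and Lmo2 and Ldb1 are adaptors without DNA-binding domains that join Tal1 and GATA1 into one complex able to bridge distant elements. Gfi1b is a zinc-finger repressor, Nfe2 encodes the p45 protein that pairs with small Maf proteins, Zfpm1 encodes FOG1, the GATA1 cofactor, and Hemgn encodes hemogen, a nuclear protein of blood-forming cells. Several of these genes, Tal1 and Lmo2 among them, are known to be controlled by enhancers far from their promoters.

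The cells were HPC-7, a single mouse haematopoietic progenitor line. Ery shStag2 cells carried a doxycycline-inducible hairpin against Stag2, a cohesin subunit, and were kept with doxycycline for 72 h in erythroid medium with EPO at 4 U/l and SCF at 20 ng/ul. Ery Luc cells carried an inducible hairpin against luciferase and had the same medium, with doxycycline for 72 h in 1 library and 73 h in the other. HPC cells were the line itself, with no hairpin named, in SCF at 100 ng/ul, so that the change of stage and the presence of a hairpin and doxycycline cannot be told apart between Ery Luc and HPC. Each condition had 2 capture libraries, but the deposited interactions come as 1 pooled list per condition. No value below therefore has a replicate error, and no difference has a test. The level of Stag2 itself was not checked, because the RNA tables of the series carry transcript identifiers that could not be tied to genes.

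The lists held 130734 interactions in Ery shStag2, 123042 in Ery Luc and 112183 in HPC. An interaction is called a contact below, and its score is the authors' own value, at least 5 in every list, used here to describe and rank contacts within a list. A pair in which both fragments were captured is listed once, with either fragment first, and the order differed between Ery Luc and HPC in 942 pairs and between Ery shStag2 and Ery Luc in 620 pairs. Counts are therefore given with the gene's fragment listed first and, beside them, with it in either place. Counts by stretch take a pair in either place. Distances run between fragment middles, and lower and higher refer to mm10 coordinates.

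Promoter sequences are shown for the 4 genes whose contact counts differed most, up or down, in one of the comparisons, so that the captured promoter can be read beside its contacts. Each is the 250 bases before a RefSeq transcription start on GRCm38.p6, read 5′ to 3′ along the gene. Capitals mark the GATA-type letters AGATAA and TGATAA, the CACCC element, the E-box CAGNTG, the Nfe2-type letters TGANTCA and the restriction site AAGCTT of HindIII, each searched on both strands. No overlap between motifs occurred in these 4 windows. The HindIII site was added to the search after the fragments had been seen.
Klf1 (chr8:84901732-84901981, plus strand): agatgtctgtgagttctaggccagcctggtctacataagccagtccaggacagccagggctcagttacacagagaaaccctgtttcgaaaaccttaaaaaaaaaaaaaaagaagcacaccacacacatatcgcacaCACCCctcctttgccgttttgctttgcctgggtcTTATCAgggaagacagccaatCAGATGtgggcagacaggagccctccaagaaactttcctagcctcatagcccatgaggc
Tal1 (chr4:115056176-115056425, plus strand): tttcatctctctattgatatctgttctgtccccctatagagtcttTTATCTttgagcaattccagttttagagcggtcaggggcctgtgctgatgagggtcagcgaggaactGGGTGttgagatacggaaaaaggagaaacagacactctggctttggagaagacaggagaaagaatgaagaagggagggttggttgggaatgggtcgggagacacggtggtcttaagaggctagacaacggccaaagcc
Zfpm1 (chr8:122281891-122282140, plus strand): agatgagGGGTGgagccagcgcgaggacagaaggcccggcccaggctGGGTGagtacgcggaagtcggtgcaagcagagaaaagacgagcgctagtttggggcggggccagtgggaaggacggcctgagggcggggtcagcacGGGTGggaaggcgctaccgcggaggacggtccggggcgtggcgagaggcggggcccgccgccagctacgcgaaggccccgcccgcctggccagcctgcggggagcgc
Hemgn (chr4:46404184-46404433, minus strand): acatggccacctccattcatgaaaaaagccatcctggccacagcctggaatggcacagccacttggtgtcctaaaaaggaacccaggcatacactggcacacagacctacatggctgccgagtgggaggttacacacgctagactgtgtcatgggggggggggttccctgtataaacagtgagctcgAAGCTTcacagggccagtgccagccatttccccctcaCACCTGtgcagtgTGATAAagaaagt

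The Klf1 window held a TGATAA that begins 80 bases before the start, a CACCC at 114 bases and an E-box at 59 bases. The Tal1 window shown held an AGATAA at 205 bases and a CACCC at 138 bases, and the window of another Tal1 start on the same captured fragment, chr4:115057561-115057810, held none of the motifs. The Zfpm1 window held 3 CACCC elements and none of the other motifs. The Hemgn window held a TGATAA at 13 bases and an E-box at 26 bases. Of 32817 mouse promoter windows of the same length, 9.99% held AGATAA, 7.95% TGATAA, 52.0% CACCC, 44.8% CAGNTG, 6.75% TGANTCA and 6.22% AAGCTT, so the CACCC and E-box matches are common letters. RefSeq promoter entries were matched for 6 of the 8 genes, with 9 windows, and Lmo2 and Nfe2 had none.

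The sequences also bear on what was captured. The Klf1, Tal1 and Zfpm1 windows lie on their captured fragments. The Hemgn window has AAGCTT at 63 bases before the start, and the listed fragment chr4:46404242-46404567 begins within that site. The captured fragment that meets the rule for Hemgn, chr4:46379200-46403455, ends below the Hemgn start at 46404183. It holds the 3′ end of Hemgn and also a start or end of Trmo, a neighbouring gene, so its contacts cannot be given to Hemgn alone.

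Across the 7 genes, contacts with the gene's fragment first numbered 98 in Ery shStag2, 96 in Ery Luc and 120 in HPC, and all of them joined fragments of the same chromosome. Their median distance was 77.9 kb in Ery shStag2, 67.4 kb in Ery Luc and 60.7 kb in HPC, against 241, 214 and 154 kb for every listed interaction within a chromosome in the same order of conditions. Contacts over 1 Mb numbered 8 in Ery shStag2, 2 in Ery Luc and 1 in HPC, which were 8.16%, 2.08% and 0.833%, beside 8.81%, 7.05% and 1.15% of all listed interactions within a chromosome. With a fragment in either place, Tal1 alone had 6 over 1 Mb in Ery shStag2, 5 in Ery Luc and 1 in HPC. Contacts with a score of at least 10 numbered 9 in Ery shStag2, 9 in Ery Luc and 27 in HPC, which were 9.18%, 9.38% and 22.5% of these genes' contacts, beside 12.4%, 12.1% and 14.8% of all listed interactions.

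**Figure D1:**
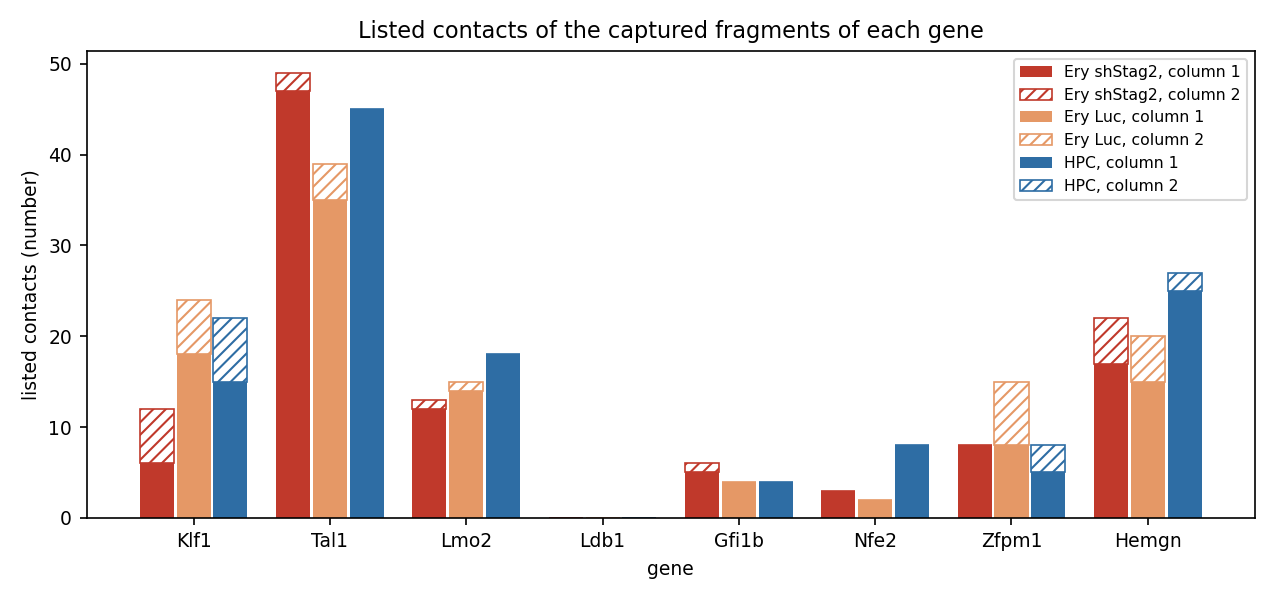
Number of listed contacts (vertical axis) for each of the 8 genes (horizontal axis) in Ery shStag2, Ery Luc and HPC, 1 pooled list each; filled bars count contacts with the gene's fragment listed first and hatched bars add those with it listed second. Tal1 has the tallest bars in each list (49, 39 and 45 in either place), Klf1 is at 12, 24 and 22, and Ldb1 has none.

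A gene was counted as having more or fewer contacts where the lists differed by at least 2. For Ery Luc against HPC, 2 genes had more contacts, Klf1 and Zfpm1 with 3 more each, where 39.0% of 15756 genes had more. In that comparison 4 genes had fewer, Tal1 and Hemgn by 10 each, Nfe2 by 6 and Lmo2 by 4, where 24.4% of genes had fewer. With fragments counted in either place the split was again 2 more and 4 fewer, beside 41.0% and 25.1% of 16024 genes. The median difference over the 7 genes was -4, against 1 over all genes. Among contacts with a score of at least 10 alone the Klf1 difference turned, with 1 contact in Ery Luc and 3 in HPC.

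For Ery shStag2 against Ery Luc, which shares the Ery Luc list with the first comparison, 2 genes had more contacts, Tal1 with 12 more and Hemgn with 2 more, where 32.0% of 16475 genes had more. In that comparison 2 genes had fewer, Klf1 by 12 and Lmo2 by 2, where 25.5% had fewer. Counted in either place, 3 genes had more and 3 had fewer, beside 33.2% and 26.9% of 16580 genes, with Gfi1b joining the first group and Zfpm1, at 7 fewer, the second. The median difference was 1, against 0 over all genes. The Hemgn difference turned to -1 among contacts with a score of at least 10 and with the lists shortened to equal length. Near the ends of the distribution stood Klf1 and Tal1. The Klf1 difference of -12 was matched or passed by 248 of 16475 genes (1.51%), and the Tal1 difference of 12 by 351 (2.13%). These ranks are of count differences and take no account of a gene's total. With a 1.5-fold threshold, 0 of the 7 genes had more contacts and 1 had fewer.

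Klf1 had 6 contacts in Ery shStag2, 18 in Ery Luc and 15 in HPC with its fragment chr8:84898227-84903910 first, and 12, 24 and 22 in either place. The Ery shStag2 count was the lowest of the 3 by either way of counting. Of the 24 contacts in Ery Luc, 16 were not listed in Ery shStag2. Those 16 had scores of 5.48 to 9.70 in Ery Luc, 12 of them under 7, and all 16 were below the 4 highest Klf1 scores of that list. The 8 contacts that both lists held lay 27.7 to 199 kb away, all on the lower side.

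The strongest Klf1 contacts were with genes immediately upstream and were present in all 3 lists. The fragment chr8:84856195-84862249, 41.8 kb lower and holding a start or end of Farsa, a tRNA synthetase subunit gene, scored 13.65 in Ery shStag2, 25.56 in Ery Luc and 16.87 in HPC. It ranked first for Klf1 in both Ery lists. The Syce2 fragment chr8:84869975-84876861, 27.7 kb lower, scored 11.66 in Ery shStag2, 16.59 in Ery Luc and 19.49 in HPC, where it ranked first.

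The Klf1 difference between Ery shStag2 and Ery Luc lay in more than one stretch. Between about 20 and 75 kb on the lower side (chr8:84824894-84881329) Klf1 had 5 contacts in Ery shStag2, 12 in Ery Luc and 11 in HPC, spread over 12 fragments. Farther out, the stretch with Nfix and Lyl1, itself a relative of Tal1, had 4 contacts in Ery shStag2, 4 in Ery Luc and 5 in HPC. Beyond 200 kb there were 2 in Ery shStag2, 6 in Ery Luc and 2 in HPC. On the higher side within 200 kb there were 0 in Ery shStag2, 2 in Ery Luc and 3 in HPC. The other 28 captured fragments within 250 kb of Klf1 together had 242 in Ery shStag2, 214 in Ery Luc and 233 in HPC, contacts with Klf1 left out.

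**Figure D2:**
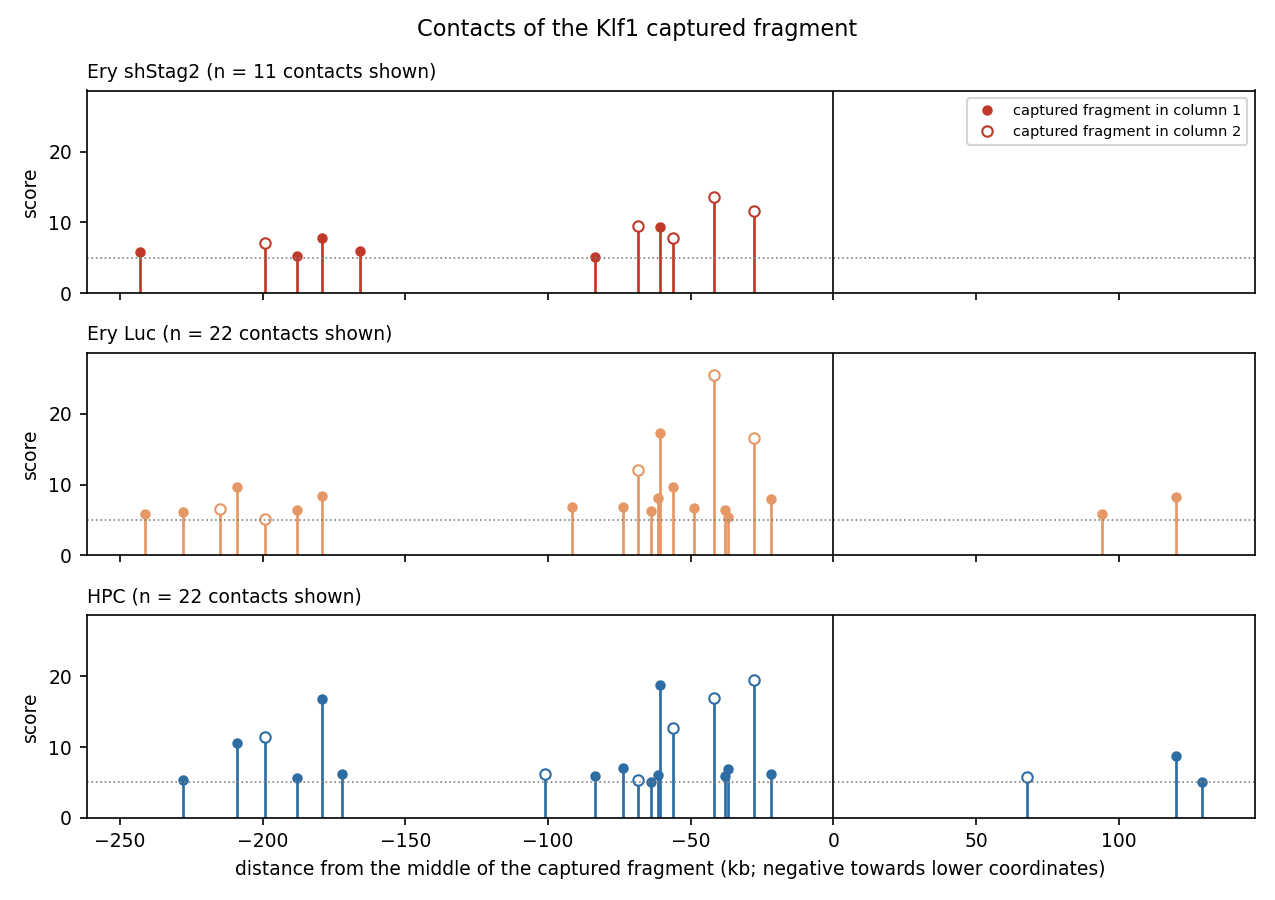
Score (vertical axis) of listed Klf1 contacts against distance in kb from the middle of the captured fragment, in Ery shStag2, Ery Luc and HPC. The horizontal axis is negative towards lower coordinates. Open points have Klf1 listed second, and the dotted line marks a score of 5. Contacts at 695 and 890 kb in Ery Luc and at 26400 kb in Ery shStag2 lie outside the range shown. Between 20 and 75 kb on the lower side there are 5, 12 and 11 points, and the Farsa contact at 41.8 kb is the tallest in both Ery lists.

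Tal1 had 47 contacts in Ery shStag2, 35 in Ery Luc and 45 in HPC from its fragment chr4:115056162-115069246, and 49, 39 and 45 in either place. Ery Luc had the fewest, with the other 2 lists close to each other. The pairs were the same only in part, with 21 of 71 Tal1 pairs in all 3 lists and 30 in 1 list. Others were in Ery shStag2 and HPC but not in Ery Luc, such as those at 76.1 and 30.2 kb. Within 50 kb Tal1 had 20 contacts in Ery shStag2, 19 in Ery Luc and 28 in HPC. On the higher side between 671 and 1160 kb it had 11 in Ery shStag2, 7 in Ery Luc and 5 in HPC. Beyond 10 Mb there were 5 in Ery shStag2, 3 in Ery Luc and 0 in HPC, with scores from 5.09 to 6.84.

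The highest-scoring Tal1 contact differed between the lists. In Ery shStag2 it was chr4:114978902-114983445 inside Cmpk1, a nucleotide kinase gene 81.5 kb lower, which scored 13.13 there, 5.28 in Ery Luc and 5.91 in HPC. In Ery Luc it was chr4:115050213-115051583, 11.8 kb lower, which scored 11.94 in Ery shStag2, 12.27 in Ery Luc and 14.62 in HPC. In HPC it was the adjoining chr4:115046557-115050212, with scores of 8.68 in Ery shStag2, 10.80 in Ery Luc and 16.24 in HPC.

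Some fragments that scored at least 10 with Tal1 in another list were not listed with it in Ery Luc. A second Cmpk1 fragment, chr4:114985477-114987698, scored 11.28 in Ery shStag2 and 13.96 in HPC and was not listed in Ery Luc. The fragment chr4:115092200-115093550 inside Pdzk1ip1, the gene next to Tal1, scored 7.48 in Ery shStag2 and 13.91 in HPC and was likewise not listed in Ery Luc. A fragment with a start or end of Mob3c, 766 kb away, scored 10.51 in Ery shStag2 and 5.30 in HPC and was not listed in Ery Luc. Ery Luc instead listed nearby fragments inside Mob3c, at 770 kb with a score of 7.43 and at 771 kb with 9.33, and the one at 771 kb scored 6.57 in Ery shStag2. A fragment with a start or end of Nsun4, 990 kb away, scored 10.31 in Ery shStag2 and 5.66 in HPC and was not listed in Ery Luc. The Stil fragment chr4:114999776-115003396, holding a start or end of the centriole gene next to Tal1, was in all 3 lists, at 9.18 in Ery shStag2, 7.98 in Ery Luc and 10.75 in HPC.

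Past the end of Pdzk1ip1 lies the part of the mouse Tal1 locus known for its erythroid enhancer. The fragment chr4:115096283-115096805, which begins 39.9 kb and ends 40.4 kb after the Tal1 start, scored 9.50 in Ery shStag2, 9.35 in Ery Luc and 5.92 in HPC. The next fragment, chr4:115096806-115097629, scored 7.78 in Ery shStag2, 8.38 in Ery Luc and 10.79 in HPC. Both were listed in all 3 conditions. The other 9 captured fragments within 250 kb of Tal1 had 116 contacts in Ery shStag2, 116 in Ery Luc and 101 in HPC.

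**Figure D3:**
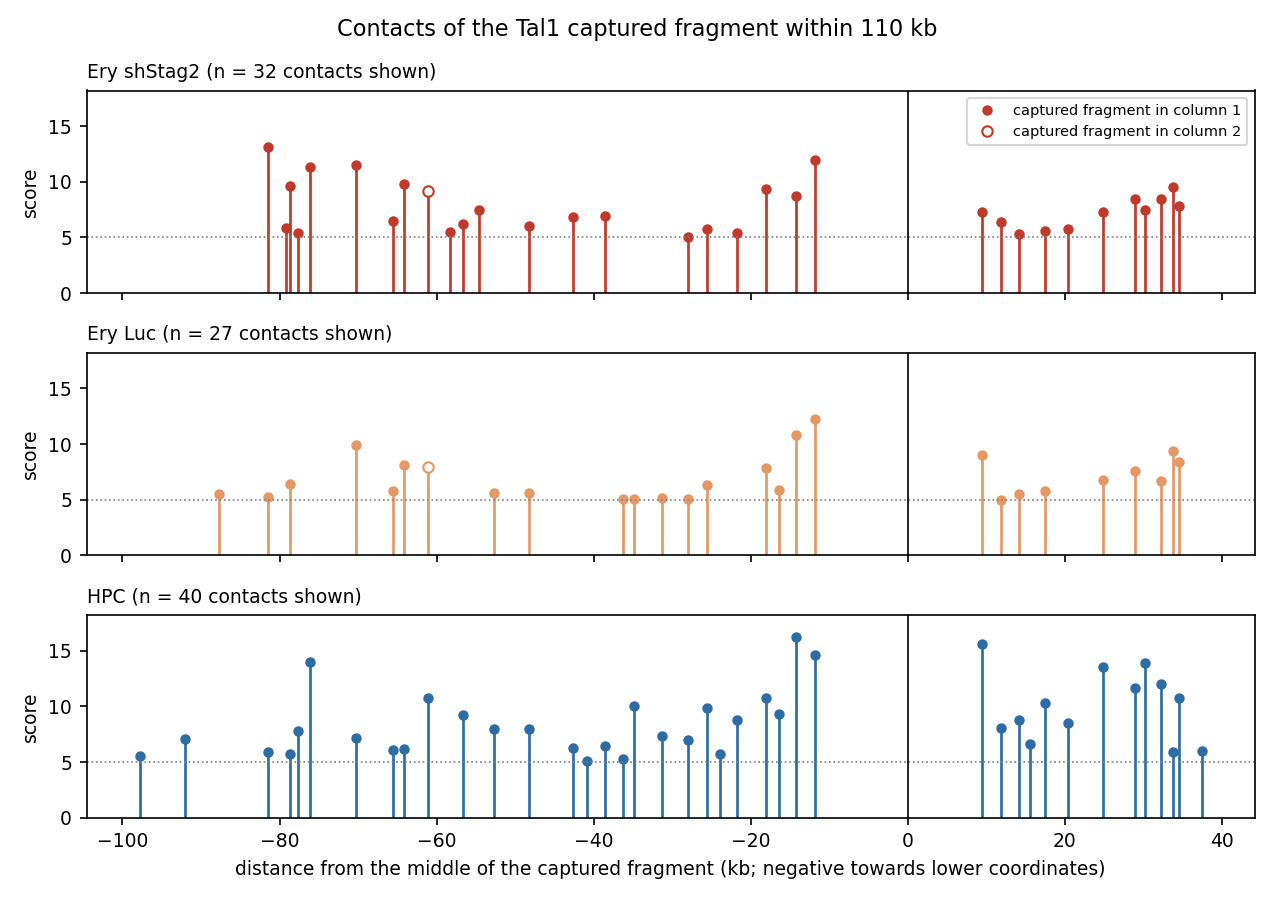
Score (vertical axis) of each listed Tal1 contact within 110 kb against distance in kb from the middle of the captured fragment (horizontal axis, negative towards lower coordinates), in Ery shStag2, Ery Luc and HPC; open points have Tal1 listed second, and the dotted line marks a score of 5. Within 50 kb there are 20, 19 and 28 points, and the tallest point sits at 81.5 kb lower in Ery shStag2, 11.8 kb lower in Ery Luc and 14.3 kb lower in HPC.

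Nfe2, on fragment chr15:103255622-103260602 with its annotated high end, had 3 contacts in Ery shStag2, 2 in Ery Luc and 8 in HPC. All 8 of HPC lay on the higher side within 80.3 kb, across Copz1, a coatomer subunit gene, and as far as Zfp385a. Only chr15:103273887-103279087, inside Copz1, was in all 3 lists, with scores of 5.03 in Ery shStag2, 5.58 in Ery Luc and 8.85 in HPC. The highest Nfe2 score in Ery shStag2, 7.31, was for a fragment 854 kb lower, nearest to the start of Sp1 and in no other list.

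Gfi1b had a start fragment, chr2:28611575-28622114, and a fragment with its other end, chr2:28600260-28611574. Together they had 5 contacts in Ery shStag2, 4 in Ery Luc and 4 in HPC, and 6, 4 and 4 in either place. Both fragments contacted chr2:28593861-28598822, between Gfi1b and Gtf3c5, in all 3 lists. Its scores with the start fragment were 6.79 in Ery shStag2, 6.99 in Ery Luc and 6.04 in HPC, and with the other fragment 5.88 in Ery shStag2, 7.45 in Ery Luc and 6.74 in HPC. The fragment chr2:28583490-28584327, which lies 37.7 to 38.5 kb downstream of the Gfi1b start, scored 6.44 in Ery shStag2, 7.41 in Ery Luc and 6.87 in HPC. All Gfi1b scores were under 8. Its promoter window held a TGATAA at 120 bases, an AAGCTT at 137 bases and a CACCC at 184 bases before the start. The captured start fragment ends at that AAGCTT, so the TGATAA lies on it and the CACCC lies beyond it.

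Lmo2 had 12 contacts in Ery shStag2, 14 in Ery Luc and 18 in HPC from chr2:103951739-103965328, which holds its annotated low end, and 13, 15 and 18 in either place. They formed a nearly unbroken run on the lower side. Between about 20 and 90 kb lower (chr2:103865292-103939161) there were 9 contacts in Ery shStag2, 10 in Ery Luc and 11 in HPC, over 12 fragments. The highest Lmo2 score fell on the same fragment in each list, chr2:103880814-103889261 at 73.5 kb, with 14.39 in Ery shStag2, 14.50 in Ery Luc and 21.99 in HPC. Its neighbour chr2:103875277-103880813 scored 10.22 in Ery shStag2, 13.80 in Ery Luc and 12.02 in HPC. The fragment chr2:103897017-103904303 at 57.9 kb scored 9.39 in Ery shStag2, 11.73 in Ery Luc and 18.70 in HPC. No start or end of a protein-coding gene lies on these 3 fragments, and Lmo2 has the nearest start.

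The 5 Lmo2 contacts of Ery Luc that Ery shStag2 did not list were weak, at 5.24 to 5.87. Of the contacts that HPC alone listed against Ery Luc, 8 in number, scores ran from 5.11 to 8.83. The difference in the Lmo2 counts therefore lay outside the 3 contacts named above, at 57.9, 73.5 and 80.5 kb, which every list held. Every list also held a contact at 64.3 kb, with 10.74 in Ery shStag2, 12.49 in Ery Luc and 7.34 in HPC. Part of the difference in counts lay between the 3 named contacts. The fragment chr2:103889262-103891421, at 68.2 kb, scored 6.28 in Ery shStag2 and 6.49 in HPC and was not listed in Ery Luc. The other 8 captured fragments within 250 kb of Lmo2 had 51 contacts in Ery shStag2, 44 in Ery Luc and 65 in HPC, so that they, like Lmo2, were fewer in Ery Luc than in HPC.

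**Figure D4:**
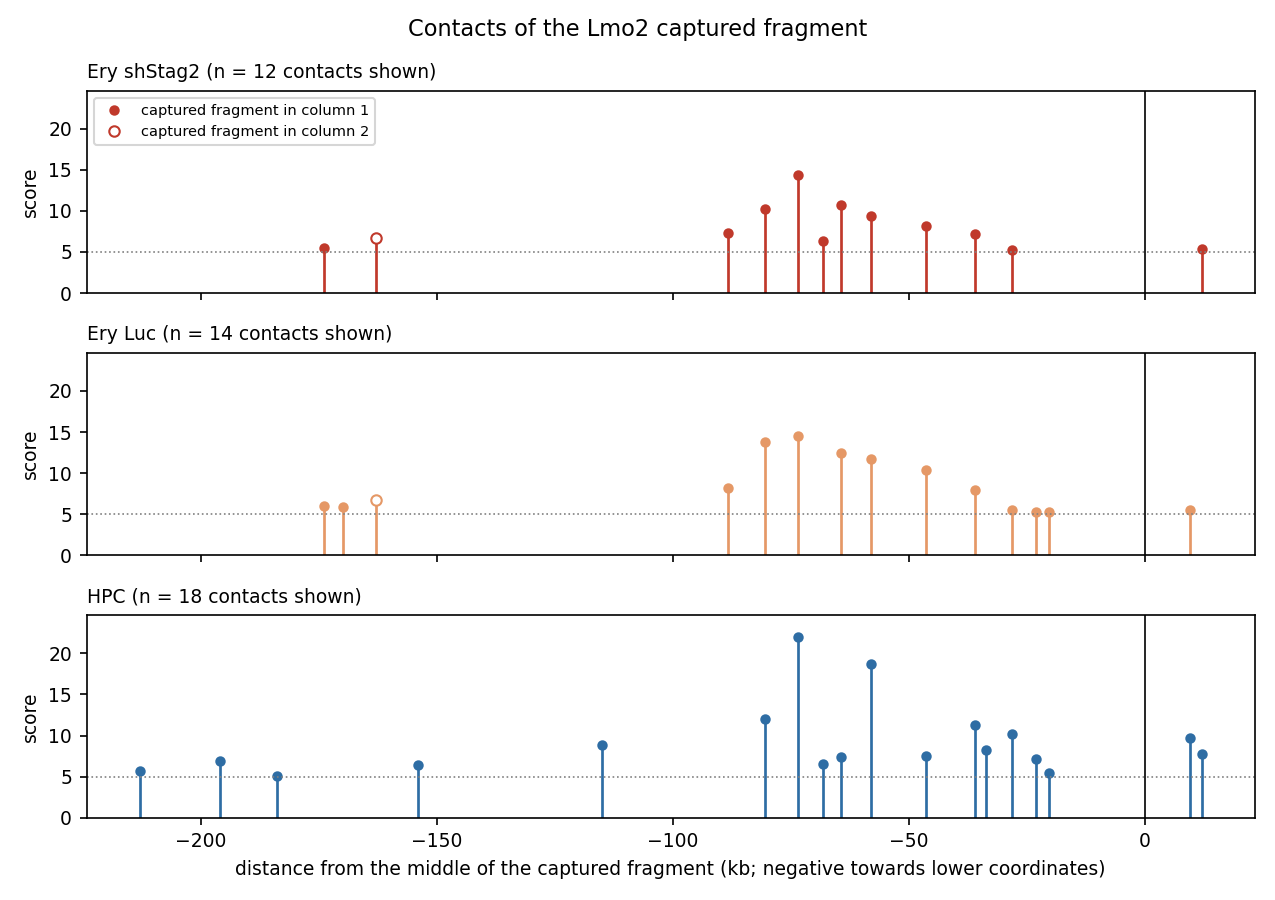
Score (vertical axis) of the listed Lmo2 contacts against distance in kb from the middle of the captured fragment (horizontal axis, negative towards lower coordinates), in Ery shStag2, Ery Luc and HPC; open points have Lmo2 listed second, and the dotted line marks a score of 5. The contact at 73.5 kb lower is the tallest in each list, at 14.39, 14.50 and 21.99. Contacts at 493 kb in Ery Luc and at 533 kb in Ery shStag2 lie outside the range shown.

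Zfpm1 had 8 contacts in Ery shStag2, 8 in Ery Luc and 5 in HPC from chr8:122280945-122290209. Counted in either place it had 8 in Ery shStag2, 15 in Ery Luc and 8 in HPC, so the way of counting decided whether Ery shStag2 stood level with Ery Luc or 7 below it. Nearly all its lower-side contacts fell inside Banp, a nuclear matrix protein gene, 307 to 334 kb away, with 6 in Ery shStag2, 7 in Ery Luc and 5 in HPC. The end of that stretch, chr8:121948129-121954068, scored 5.01 in Ery shStag2, 12.40 in Ery Luc and 11.01 in HPC.

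On the higher side Zfpm1 had 2 contacts in Ery shStag2, 7 in Ery Luc and 3 in HPC. The fragment chr8:122369210-122370581, 84.3 kb higher and next to Zc3h18, was in all 3 lists at 9.37 in Ery shStag2, 7.53 in Ery Luc and 6.61 in HPC. The captured Zc3h18 fragment chr8:122371880-122380115 was not listed in Ery shStag2 and scored 8.96 in Ery Luc and 10.86 in HPC. Fragments at Mvd, Rnf166, Piezo1 and Cdt1 were listed with Zfpm1 only in Ery Luc, with scores of 5.10 to 6.06, and all 4 are captured fragments listed before Zfpm1 in their pair.

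**Figure D5:**
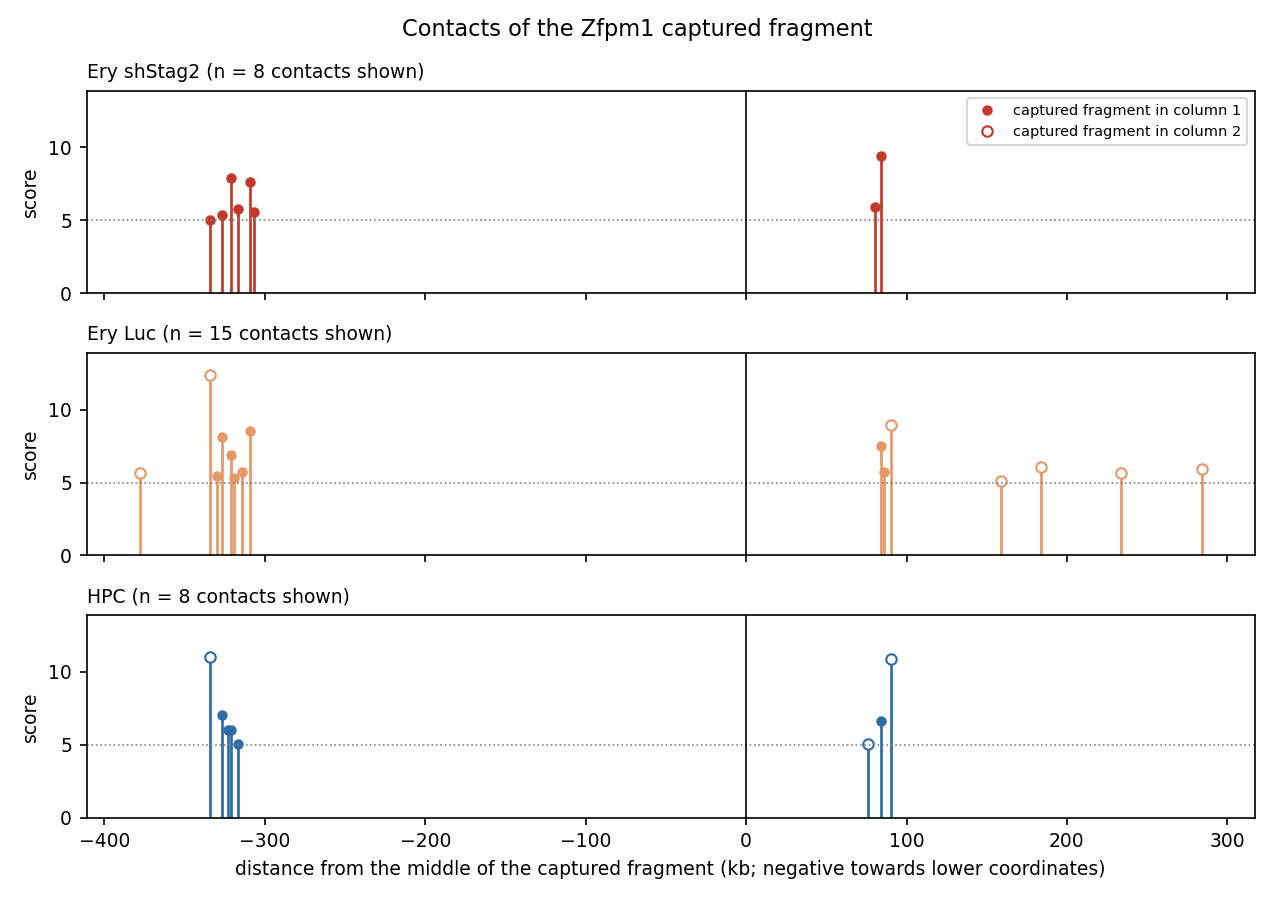
Score (vertical axis) of each listed Zfpm1 contact against distance in kb from the middle of the captured fragment (horizontal axis, negative towards lower coordinates), in Ery shStag2, Ery Luc and HPC; open points have Zfpm1 listed second, and the dotted line marks a score of 5. The cluster inside Banp at 307 to 334 kb lower holds 6, 7 and 5 points, and the higher side holds 2, 7 and 3.

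The fragment with the 3′ end of Hemgn and with Trmo had 17 contacts in Ery shStag2, 15 in Ery Luc and 25 in HPC, and 22, 20 and 27 in either place. Between Anp32b, a histone chaperone family gene, and Nans, a sialic acid synthase gene, it had 9 contacts in Ery shStag2, 13 in Ery Luc and 13 in HPC. The Nans fragment chr4:46485985-46490566 scored 10.60 in Ery shStag2, 8.99 in Ery Luc and 13.76 in HPC. Near Xpa and Ncbp1, 159 to 245 kb lower, it had 7 contacts in Ery shStag2, 4 in Ery Luc and 9 in HPC. It contacted the short fragment just upstream of the Hemgn start, chr4:46404242-46404567, in all 3 lists, with scores of 6.04 in Ery shStag2, 5.37 in Ery Luc and 5.86 in HPC. Contacts over 1 Mb numbered 3 in Ery shStag2, 0 in Ery Luc and 0 in HPC. The other 8 captured fragments within 250 kb had 59 contacts in Ery shStag2, 51 in Ery Luc and 72 in HPC, the same order of the lists as for the Hemgn fragment. Around Nfe2 the other 13 had 83, 84 and 89, and around Zfpm1 the other 9 had 26, 29 and 17. Around each Gfi1b fragment the other 14 had 57 to 61 in Ery shStag2, 36 to 38 in Ery Luc and 40 in HPC. Whether the surroundings had a part in a gene's difference was not tested.

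Exact repetition of a contact was partial. Of the 96 contacts of the 7 genes in Ery Luc, 67 were in the HPC list (69.8%, exact binomial interval 59.6 to 78.7%), and these were 55.8% of the 120 HPC contacts (46.5 to 64.9%). Of the 98 contacts in Ery shStag2, 55 were in the Ery Luc list (56.1%, 45.7 to 66.1%), and these were 57.3% of the 96 Ery Luc contacts (46.8 to 67.3%). Over all listed interactions, 41.4% of Ery Luc interactions were in HPC, 45.4% of HPC interactions in Ery Luc, 42.1% of Ery shStag2 interactions in Ery Luc and 44.7% of Ery Luc interactions in Ery shStag2. At the authors' threshold the genes thus stood above the whole list in both directions. The whole list is an unlike set, since its contacts lie farther apart and some join 2 chromosomes, which none of these genes' contacts did. Such interactions numbered 9752 in Ery shStag2, 8788 in Ery Luc and 526 in HPC, and no share was adjusted for this. With a score of at least 10 in both lists, 25.9% of the genes' 27 HPC contacts were in Ery Luc (11.1 to 46.3%). Over all HPC interactions of that score the share was 40.9%. Ery Luc held 9 of the genes' contacts at that score, and 77.8% of them were in HPC (40.0 to 97.2%). Over all Ery Luc interactions of that score the share was 45.4%. At 10 the genes thus stood below the whole list in the first direction and above it in the second. Both intervals took in the share over all interactions. The 95% intervals cover counting error only and treat neighbouring fragments as separate. Within 10 kb on the other end, 91.7% of the Ery Luc contacts had a partner in HPC and 82.7% of the Ery shStag2 contacts had one in Ery Luc. The share within 10 kb was not computed over all interactions, so it does not set these genes apart. Over the 3 lists, 56 of 197 pairs were in all of them and 86 in 1 only. Nfe2 had 1 of 9 in all lists, Zfpm1 4 of 20 and Klf1 8 of 32. Lmo2 had 7 of 24, Hemgn 12 of 34 and Gfi1b 3 of 7. Such counts were not made over all listed pairs, so whether these are usual values is not known.

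Other genes of the same pathways were counted with their fragment listed first, from lists drawn up with earlier results of these data known. Both comparisons use the Ery Luc list, and the shares to read these counts against are the 39.0% and 24.4% of all genes in the first comparison and the 32.0% and 25.5% in the second. Of partners and cofactors of the members' complexes, 11 of 23 had more contacts and 5 fewer in Ery Luc against HPC, and 6 of 24 had more and 12 fewer in Ery shStag2 against Ery Luc, with median differences of 1 and -1.5. The largest excess in the first comparison and the largest deficit in the second were for Chd4, the NuRD remodeller, with 18 contacts in Ery shStag2, 51 in Ery Luc and 20 in HPC on a fragment it shares with Nop2. Ssbp4, a partner of Ldb1, had 12 in Ery shStag2, 19 in Ery Luc and 4 in HPC on a fragment shared with Ell and Isyna1. The largest deficits against HPC were for Mta2, with 35 in Ery Luc and 52 in HPC on a fragment shared with Eml3 and Tut1, and Gata1 itself, with 13 in Ery Luc and 24 in HPC. In the second comparison Runx1 had 17 in Ery shStag2 and 11 in Ery Luc, Ssbp3 had 47 in Ery shStag2 and 41 in Ery Luc, and Ssbp2 had 20 in Ery shStag2 and 29 in Ery Luc. In either place the list had 11 of 24 more and 6 fewer in the first comparison and 5 more and 11 fewer in the second.

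Of other red cell regulators, 9 of 15 had more and 1 fewer in the first comparison, and 4 had more and 6 fewer in the second, with medians of 3 and -1. Stat5a and Stat5b share 1 captured fragment with 1 contact in Ery shStag2, 6 in Ery Luc and 3 in HPC, which is thus counted for both genes. In either place 10 of 15 had more and 0 fewer in the first comparison, and 5 had more and 6 fewer in the second. Ikzf1, which encodes Ikaros, had 48 contacts in Ery shStag2, 53 in Ery Luc and 37 in HPC, and the single gene with fewer in Ery Luc was Foxo3, with 24 in Ery Luc and 26 in HPC, or 28 and 29 in either place. Klf13, a relative of Klf1, had 54 in Ery shStag2, 38 in Ery Luc and 37 in HPC. Mxi1 had 44 in Ery shStag2, 39 in Ery Luc and 29 in HPC. Myb, a progenitor regulator, had 32 in Ery shStag2, 40 in Ery Luc and 40 in HPC.

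Of genes that these factors are known to regulate in red cells, 15 of 20 had more contacts and 3 fewer in Ery Luc against HPC, and 5 of 21 had more and 11 fewer in Ery shStag2 against Ery Luc, with medians of 4 and -2. In either place 16 of 21 had more and 2 fewer in the first comparison, and 4 had more and 11 fewer in the second. Bcl2l1, which encodes the survival protein Bcl-xL, had 19 contacts in Ery shStag2, 31 in Ery Luc and 11 in HPC on a fragment it shares with Cox4i2. Fech, the last enzyme of haem synthesis, had 18 in Ery shStag2, 9 in Ery Luc and 2 in HPC. The ankyrin gene Ank1 had 0 in Ery shStag2, 10 in Ery Luc and 2 in HPC, and 7 of the 10 were within its chromosome. The carbonic anhydrase gene Car2 had 90 in Ery shStag2, 67 in Ery Luc and 69 in HPC. Epb42 had 0 in Ery Luc and 3 in HPC on a fragment shared with Ccndbp1 and Tmem62. Against that list's median of 4 in the first comparison, Klf1 and Zfpm1 were each at 3, and Tal1, Hemgn, Nfe2 and Lmo2 were below 0.

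For each member with at least 10 contacts in some list, the gene with the most similar counts was found by the Euclidean distance of log2(contacts + 1) over the 3 lists, within chromosomes. Nearest to Klf1 was Vps26a, with 7 contacts in Ery shStag2, 20 in Ery Luc and 15 in HPC. Nearest to Tal1 was Vcpkmt, with 45, 35 and 44 in the same order. Dcpp1 and Pip5k1c were tied for Lmo2, and Rnf151 and Rps2 for Hemgn. These are likenesses over 3 pooled lists and rest on counts alone.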

How the data were processed

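Promoter-capture Hi-C was made from HindIII-digested chromatin of HPC-7 cells with a SureSelect promoter capture, per the labels' protocols. The authors deposited 1 list per condition, each from 2 libraries, with a pair of mm10 fragments and a score per line. The build is named in the submitters' processing notes. Depth, caller and settings: not given in the sources used here, which leaves the precision of a score unknown. No deposited score was below 5.

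Contacts were counted with Python 3.11.15, pandas 2.3.3, numpy 2.4.6 and scipy 1.17.1. A captured fragment was assigned to a gene where it held the gene's annotated start or end in the RefSeq GRCm38.p6 table, and a gene counted as changed where lists differed by at least 2 contacts. The counting was tested on simulated lists. Intervals are exact binomial at 95%.

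The members and the gene lists were chosen with earlier results of these data known. Named contacts were the highest score per fragment and list, those of at least 10 in 1 of 2 compared lists only, and up to 3 per gene in all lists. Contacts near the Tal1 and Gfi1b enhancers and next to the Hemgn start were chosen after their values were seen. From the gene lists, up to 2 genes each way per comparison were named, with ties of more genes left out. Some results that these rules would name are not reported here.

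The 15 RNA libraries were not analysed here, since 0 of 55943 transcript identifiers were found in the gene tables, and the planned edgeR model was not run. The 53 ChIP libraries were not used here.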

Additional observations from a re-analysis of the deposited data

How the results depend on the processing

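No paired analysis was possible because each list pools its 2 libraries, and for the same reason no replicate could be left out. The RNA alternatives were not run, and start fragments could not be chosen for Lmo2 and Nfe2, whose strand is not in the tables used. For Ery Luc against HPC, the 2 genes with more contacts became 0 at a score of at least 10 and 1 with a 1.5-fold threshold, and the 4 with fewer became 1 with start fragments alone and 2 with the 1.5-fold threshold. For Ery shStag2 against Ery Luc, the 2 with more became 1 at a score of at least 10, with start fragments and with lists of equal length, and 0 at 1.5-fold, while the 2 with fewer became 1 at a score of at least 10, with start fragments and at 1.5-fold. Of the 7 genes, 4 had contacts at a score of at least 10, and 4 with start fragments. Start fragments left out Lmo2, Nfe2 and Hemgn, so the falls in that setting include genes no longer counted. Direction reversed for Klf1 in Ery Luc against HPC at a score of at least 10 (-2), and for Hemgn in Ery shStag2 against Ery Luc at that score (-1) and at equal length (-1). The Gfi1b difference in Ery shStag2 against Ery Luc, 1, became -3 at a score of at least 7, with 0 against 3 contacts. In Ery Luc against HPC it went from 0 to 3 at that score. The share of HPC contacts found in Ery Luc, 55.8%, was 35.5% at a score of at least 7, 25.9% at 10 and 89.2% within 10 kb, beside 45.4%, 43.0% at 7 and 40.9% at 10 over all interactions. For Ery Luc contacts that Ery shStag2 also listed, the share of 57.3% was 44.4% of 9 contacts at 10 (13.7 to 78.8%) and 88.5% within 10 kb. Over all interactions that share was 44.7%, and 50.7% at 10. No share within 10 kb was computed over all interactions. Beyond the settings' own construction, the cause was not tested. Counting in either place was added after seeing the data. With scores listed only from 5, an unlisted contact may lie just below that value, and small counts such as those of Nfe2 and Gfi1b are the least certain.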

Other observations

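Ldb1 met the rule on no fragment, but a captured fragment inside the gene, chr19:46039031-46046327, holds 2 of its 3 RefSeq transcription starts. It was chosen after its values were seen. That fragment had 1 contact in Ery shStag2, 2 in Ery Luc and 1 in HPC. In all lists it contacted a fragment 255 kb lower that holds a start or end of Kcnip2 and Oga, with scores of 5.39 in Ery shStag2, 6.56 in Ery Luc and 5.17 in HPC. The additional contact of Ery Luc, 834 kb away and nearest to the start of Lbx1, scored 7.11. The Kcnip2 and Oga fragment was also listed with the fragment at the high end of Ldb1, which is nowhere listed first, in Ery Luc (5.23) and in HPC (5.77). In Ery Luc alone it was listed with chr19:46036078-46039030, which holds the remaining annotated start (5.34).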
